A study of Homo sapiens with 2 samples.

Results

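The PML-RARA antibody profile of NB4 cells was examined at 10 microRNA loci with roles in blood cells: MIR142, MIR223, MIR21, MIR155, MIR146A, MIR342, MIR107, MIR181A1, MIR23A and MIRLET7B. Their members are the listed peaks within 20 kb of each hairpin, measured on hg19 from the hairpin position (given to 0.1 kb) to the nearest edge of a peak. The rule took 18 of the 20085 peaks, which lay at 5 of the 10 loci. NB4 is an established human line of acute promyelocytic leukemia; its PML-RARA fusion protein links PML, a scaffold of nuclear bodies, with RARA, a nuclear receptor for retinoic acid. The cells were grown with no stated treatment and profiled by CUT&Tag, which uses an antibody, here one against PML-RARA, to bring a transposase to chromatin, where it inserts adapters for sequencing. The study held 2 replicates of 1 group and gave 1 peak list, labelled as merged. That it pools both replicates is read from this label. How the replicates were merged, and whether they came from separate cultures, is not stated in the labels. The list gives no value per replicate, no depth and no control antibody, so no spread or test can be had, and every value below is a description of this merged list. It holds no expression values, so the cell type could not be checked against marker levels.

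MicroRNAs are cut from hairpins in longer primary transcripts, which often start several kb upstream of the hairpin or are shared with a host gene. The mature strand guides Argonaute proteins to messenger RNAs through its seed, bases 2 to 8, and lowers their translation and stability. In myeloid cells they tune differentiation and inflammatory signalling, and several of those examined here are known to respond to retinoic acid in promyelocytic leukemia cells. PML-RARA acts on DNA, as a repressor or activator of transcription, so a peak bears on the chromatin around a hairpin and not on the mature RNA itself.

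The mature sequences that name these loci are printed first, because they set the identity of each member; the capitals mark the seed, and all come from RefSeq (GRCh38.p14). All 10 members matched an entry by symbol.
miR-142-3p: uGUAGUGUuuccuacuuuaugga
miR-142-5p: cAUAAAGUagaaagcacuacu
miR-223-3p: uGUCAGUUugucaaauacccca
miR-23a-3p: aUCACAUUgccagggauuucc
miR-21-5p: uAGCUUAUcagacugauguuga
miR-146a-5p: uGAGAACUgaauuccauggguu
miR-155-5p: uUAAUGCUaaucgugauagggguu
miR-342-3p: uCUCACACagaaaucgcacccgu
miR-107: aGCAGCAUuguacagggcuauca
miR-181a-5p: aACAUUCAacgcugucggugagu
let-7b-5p: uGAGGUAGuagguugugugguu
The 18 mature sequences of the 10 genes (both arms where RefSeq lists both) held 18 different seeds, so no members of the set share a seed. Some share one with microRNAs outside the set: let-7b-5p with 10 others, among them let-7a-5p and miR-98-5p, miR-181a-5p with 4, miR-23a-3p with miR-23b-3p and miR-23c, and miR-107 with miR-103a-3p. The seeds of miR-142-3p, miR-223-3p, miR-155-5p and miR-342-3p occurred in no other mature microRNA of the table.

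Of the 10 hairpins, 5 had a peak within 20 kb and 3 lay inside a peak. Of the positions spaced 1 kb apart on chromosomes 1 to 22 and X, 13.7% had a peak within 20 kb and 0.779% lay inside one. Genes are a closer measure: of 426 transcription start sites (TSSs) in hg19 gene-model samples, 54.0% had a peak within 20 kb and 33.6% lay inside one. The samples held 22 microRNA genes at 16 different positions; of these positions 68.8% had a peak within 20 kb and 0.00% (0 of 16) lay inside one. The share of hairpins near a peak, 5 of 10, and inside one, 3 of 10, was close to that of sampled TSSs. A hairpin is not a TSS, however. Beside the 16 sampled microRNA positions, a smaller share of hairpins was near a peak and a larger share inside one. All of these positions but that of MIR1204 lie between 17436 and 12639051 bp of chromosome 1. Their shares thus describe mostly 1 chromosome end and not microRNA genes in general. The loci differed among themselves far more in the amount of signal than these counts show.

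Near the hairpins, the summed total signal (coverage added over the bases of each peak, a value of the authors' peak caller SEACR) was 591888 at MIR142, 395249 at MIR23A, 197747 at MIR223, 42969 at MIR21 and 4875 at MIR146A. MIR142 thus held 48.0% of the signal near all 10 hairpins, MIR23A 32.1%, MIR223 16.0%, MIR21 3.49% and MIR146A 0.395%. Where a sampled TSS had any peak within 20 kb, the median sum was 14951. No sampled TSS reached the sum at MIR142 (the highest was 563234), 1 of 426 reached that at MIR23A and 3 that at MIR223, against 46 for MIR21 and 201 for MIR146A. Because the loci were chosen with earlier results of these data known, these counts are a description and no independent evidence. Per covered base the order was partly different: the mean signal was 30.2 at MIR142, 24.0 at MIR23A, 22.1 at MIR21, 18.0 at MIR223 and 7.86 at MIR146A, beside a median of 7.53 over all peaks of the list. MIR21 stood above MIR223 on this scale and below it by sum. Whether neighbours in these orders differ beyond replicate error cannot be said.

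**Figure D1:**
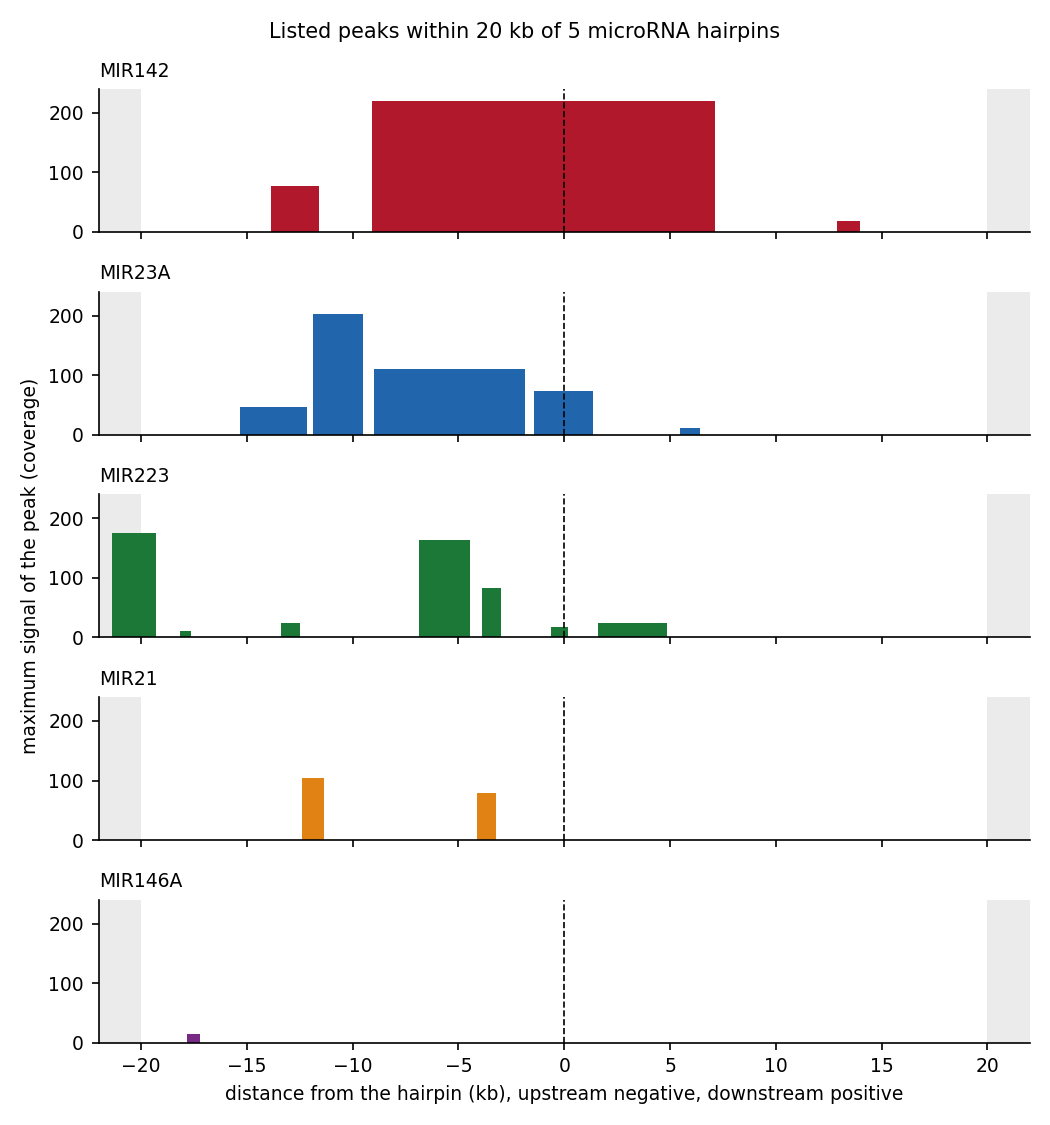
Listed peaks around the 5 hairpins that have any within 20 kb. The x axis is the distance from the hairpin (dashed line) in kb in the direction of transcription, each block spans 1 peak, and its height is the maximum signal (highest coverage) of that peak, not its profile. Grey bands lie beyond 20 kb. The MIR142 hairpin lies within 1 block of 16221 bp that reaches 220, while the MIR223 hairpin lies under a low block of maximum 17 with taller ones upstream.

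The 3 hairpins that lay inside a peak are shown whole, since this is the stretch that the listed peaks cover at MIR142, MIR223 and MIR23A; they are RefSeq sequences, with the mature arms in capitals.
MIR142: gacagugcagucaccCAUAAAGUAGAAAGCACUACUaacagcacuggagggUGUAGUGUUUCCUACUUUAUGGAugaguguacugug
MIR223: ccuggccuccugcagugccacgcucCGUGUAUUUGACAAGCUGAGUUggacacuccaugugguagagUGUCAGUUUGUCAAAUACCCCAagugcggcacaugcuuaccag
MIR23A: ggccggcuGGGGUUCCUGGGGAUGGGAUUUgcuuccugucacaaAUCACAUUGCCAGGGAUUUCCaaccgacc
They are 87, 110 and 73 bases long, each a small part of the peak above it. The hairpin position is known only to 0.1 kb, and the peak at MIR223 passes it by 197 bp on its downstream side, so the hairpin of 110 bases lies near that edge.

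MIR142 encodes a microRNA that is restricted to blood cells and abundant in all their lineages, with both arms in use. On RefSeq it lies on the minus strand within MIR142HG and TSPOAP1-AS1, next to TSPOAP1. Its hairpin, at 56408.6 kb of chromosome 17, lay inside the peak chr17:56401454-56417675, which extended 9075 bp upstream and 7146 bp downstream of it. This peak was 16221 bp long, with a total signal of 553145, a maximum of 220 and a mean of 34.1 per base. It ranked 2 of 20085 by total signal and 3 by length, but only 161 by maximum and 279 by mean signal per base. Relative to the list medians (893 bp, total 6479, maximum 22), it was 18.2 times as long and had 85.4 times the total and 10.0 times the maximum. Its place therefore rests on breadth more than on height. Among the 10 peaks with the highest totals, it came 2nd by length, 9th by maximum (range 207 to 830) and 8th by mean signal (range 24.6 to 80.0 per base). On chromosome 17 the next highest total was 270116, so the peak at MIR142 had 2.05 times as much, and it held 2.97% of all peak signal of that chromosome. The peak is credited to MIR142 by distance alone. Gene starts were not placed on the peak list, and whether it belongs to MIR142HG, TSPOAP1-AS1 or TSPOAP1 was not tested.

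A peak upstream of MIR142, chr17:56420200-56422452, had a total of 32391 and a maximum of 78. Downstream, chr17:56394630-56395726 was weak, with a total of 6352 and a maximum of 19, below the list medians of both. The broad peak alone held 93.5% of the signal at this locus. Just outside the window stood a peak at a distance of 20003 bp (chr17:56387785-56388597, total 2949) and one at 20487 bp (total 9285). The first of these counts as a member if the hairpin lies 0.05 kb lower, which gives 4 peaks at MIR142 and 19 in all.

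**Figure D2:**
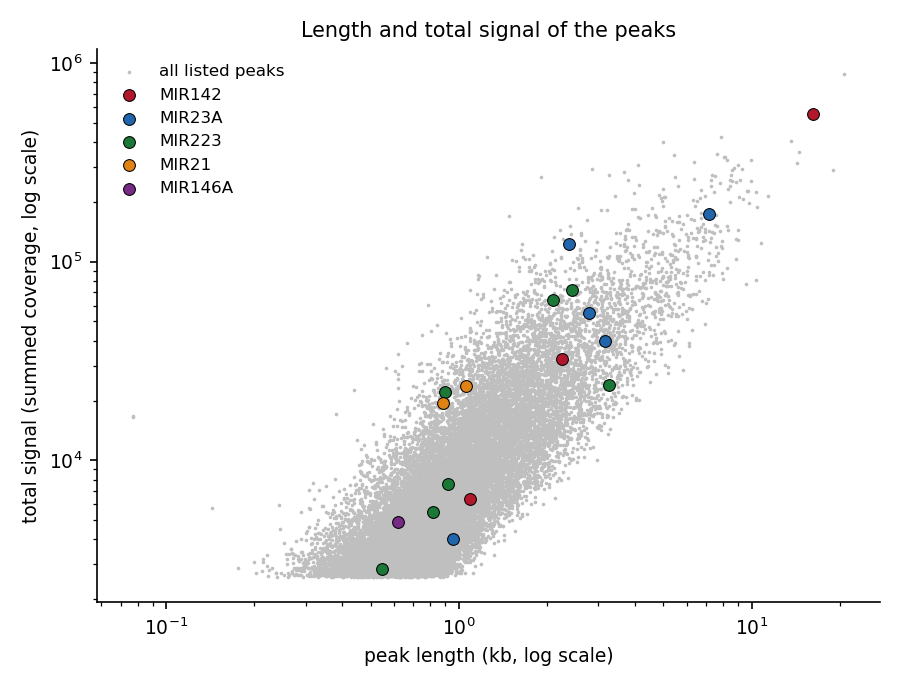
Length (x axis, kb, log scale) against total signal (y axis, summed coverage, log scale) of all 20085 listed peaks (grey) and of the 18 near the microRNA hairpins (coloured by locus). The broad MIR142 peak stands at the upper right edge, behind only 1 peak of higher total, while the peaks of the other loci lie within the cloud.

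MIR23A is the leading hairpin of a cluster with MIR27A and MIR24-2, carried by the transcript MIR23AHG; in myeloid progenitors this cluster is known to be activated by the transcription factor PU.1 and to oppose lymphoid fate. Its hairpin, on the minus strand at 13947.4 kb of chromosome 19, lay inside chr19:13946034-13948822 (2788 bp, total 55440, maximum 73, rank 776 by total). The strongest peak of the locus began 1850 bp upstream and ran to 9009 bp upstream: chr19:13949250-13956409, with 7159 bp, a total of 173803 and a maximum of 110, ranked 76. Next to it, chr19:13956898-13959271 was shorter (2373 bp) and taller, with a total of 122062 and a maximum of 203. Its mean of 51.4 per base ranked 63 of the list and was the highest of all 18 member peaks. A further upstream peak, chr19:13959573-13962732, had a total of 39912 and a maximum of 46. On the downstream side only chr19:13940991-13941950 was listed, with a total of 4032 and a maximum of 11.

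These 4 stronger peaks at MIR23A were split by gaps of 428, 489 and 302 bp. Joined over gaps of at most 1 kb, they formed 1 stretch of 16698 bp, of which 92.7% lay in listed peaks. The stretch had a total of 391217 and ranked 14 of 17149 joined peaks, where the MIR142 peak ranked 3. Listed as separate rows, MIR23A and MIR142 look unlike each other, whereas their joined lengths, 16698 and 16221 bp, are close.

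MIR223 encodes a microRNA of granulocytes and monocytes that limits neutrophil activation and whose level is known to rise with granulocytic differentiation. It lies on the plus strand within MIR223HG, and VSIG4 is the next gene on its higher side. Its hairpin, at 65238.7 kb of chromosome X, lay inside chrX:65238083-65238897, a peak with a total of 5495 and a maximum of 17, both below the list medians. The signal of this locus lay upstream instead. The strongest peak was chrX:65231827-65234268, 4432 to 6873 bp upstream, with a total of 71854 and a maximum of 163 (rank 482 by total), and it was followed by chrX:65234799-65235697, with a total of 22040 and a maximum of 83. The tallest, chrX:65217324-65219427, lay at the edge of the window, 19273 bp upstream, with a total of 64030 and a maximum of 176.

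Between these MIR223 peaks stood a pair of lower ones: chrX:65220523-65221071, with a total of 2842 and a maximum of 10, and chrX:65225311-65226228, with 7627 and 25, just above the list medians. Downstream of the hairpin, chrX:65240275-65243545 was long (3270 bp) and low, with a total of 23859 and a maximum of 24. All 7 peaks belonged to 1 run with gaps of at most 5599 bp. By total signal the strongest ranked 8 of the 379 peaks on chromosome X, and together they held 4.65% of the peak signal there. Beyond them the chromosome was empty for a long way on the downstream side, where the next peak lay 2552575 bp from the hairpin. Upstream the next was nearer, at 32276 bp (chrX:65205811-65206424, total 4901).

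MIR21, a microRNA found in many tissues and raised in many tumours, lies at the end of the protein-coding gene VMP1 on the plus strand. No peak covered its hairpin at 57918.6 kb of chromosome 17. Both of its peaks lay upstream: chr17:57914471-57915356, 3244 bp away, had a total of 19330 and a maximum of 79, and chr17:57906198-57907256, 11344 bp away, had 23639 and 104. They were short (885 and 1058 bp) and similar to each other, and tall for their length: by maximum they ranked 1554 and 949, but 10189 and 7687 by length. The next peaks on either side lay 51377 bp downstream and 53867 bp upstream.

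MIR146A, which restrains signalling to NF-kappaB by lowering TRAF6 and IRAK1, lies within MIR3142HG on the plus strand. It had a single peak, chr5:159894588-159895208, 17192 bp upstream, with a total of 4875 and a maximum of 15, both below the list medians. The locus was otherwise isolated, with the next peaks 172850 bp upstream and 2951685 bp downstream.

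The other 5 hairpins had no peak within 20 kb. MIR342, in an intron of the actin regulator gene EVL and known to rise under retinoic acid in promyelocytic leukemia cells, had its nearest peak 30053 bp upstream. That peak, chr14:100544785-100545947 (total 10643, maximum 28), closed a group of 5 peaks 30 to 45 kb upstream. The strongest of them were chr14:100531125-100532874, with a total of 26378, and chr14:100542496-100543881, with 25372 and the highest maximum of the group, 64. MIR342 was thus bare within the window but had a summed signal of 77244 within 50 kb, more than MIR21 (42969).

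MIRLET7B, a let-7 microRNA that represses growth-promoting genes such as RAS and HMGA2, lies in MIRLET7BHG near MIRLET7A3. Its nearest peak stood 42752 bp upstream (chr22:46465597-46466848) and was weak, with a total of 4668 and a maximum of 10. MIR107, in an intron of the pantothenate kinase gene PANK1, had its nearest 51072 bp upstream (chr10:91403572-91404833), with a total of 16378 and a maximum of 53. That peak exceeded the list medians of both.

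MIR181A1, a microRNA of lymphoid and early myeloid cells that lies beside MIR181B1 in MIR181A1HG, had its nearest peak 78275 bp upstream (chr1:198906475-198906807). It was among the shortest of the list, 332 bp, with a total of 4282 below the list median and a maximum of 38 above it. MIR155, an inflammatory microRNA of activated leukocytes processed from MIR155HG, was the farthest from any listed peak. Its nearest lay 160714 bp downstream (chr21:27107014-27107896, total 7562, maximum 28), unlike the upstream ones of the other 4 hairpins. Of the 426 sampled TSSs, 21.8% lay at least this far from a peak, and so did 60.0% of the 1 kb positions.

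**Figure D3:**
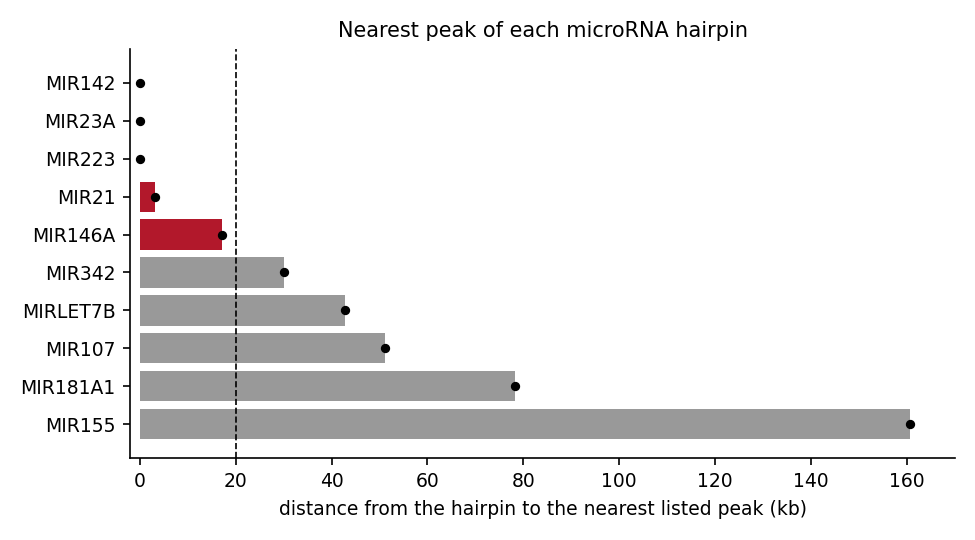
Distance in kb from each of the 10 hairpins to the nearest edge of a listed peak, with the value as a black point. The dashed line marks 20 kb, red bars lie within it and grey bars beyond it; MIR142, MIR23A and MIR223 are at 0, and MIR155 is the farthest at 161 kb.

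At the 5 loci with a peak, more of the peaks and of the bases in peaks within 20 kb lay upstream of the hairpin than downstream. With upstream read from the strand in RefSeq, 12 of the 18 peaks lay upstream, 3 covered a hairpin and 3 lay downstream. The summed totals were 584405 upstream, 614080 in the covering peaks and 34243 downstream. The signal of a covering peak cannot be assigned to a side, so bases in peaks were also counted on each side of the hairpin within 20 kb. At MIR23A 70.6% of the upstream bases and 11.6% of the downstream bases lay in peaks, and at MIR223 it was 30.7% and 17.3%. At MIR142 it was 56.6% and 41.2%. As a share of the bases in peaks, 57.9% were upstream at MIR142, 63.9% at MIR223 and 85.9% at MIR23A. MIR21 had 9.71% and MIR146A 3.10% upstream, and neither had a base in a peak downstream. Over all 10 loci 34151 bases in peaks lay upstream and 14034 downstream, so that 70.9% were upstream. This split was noticed after the values were seen, peaks of 1 locus are not independent, and no test was made of it. It was not computed for the sampled TSSs, so no background share stands beside it, nor for a wider window. Farther from MIR142, downstream peaks at 45925 and 48508 bp had totals of 39258 and 88430, and the upstream peak at 20487 bp had 9285. The peaks within 50 kb of MIR342, in contrast, all lay upstream.

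**Figure D4:**
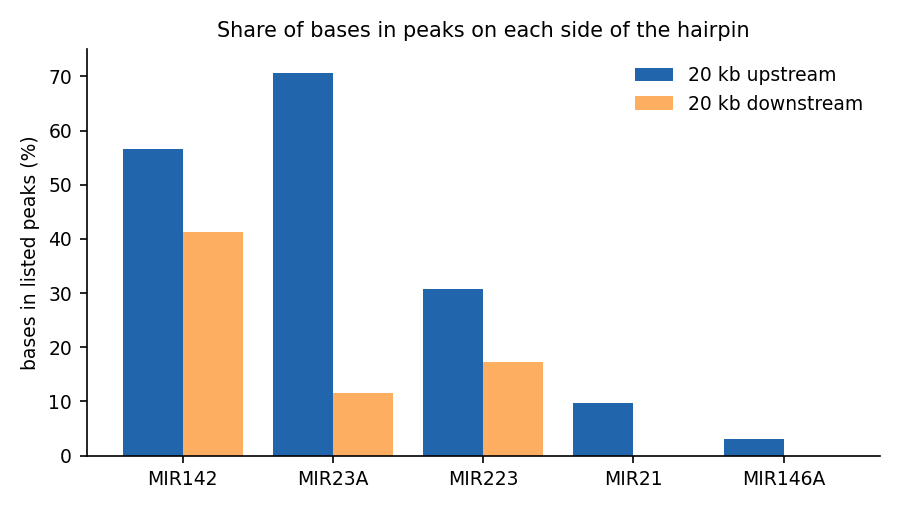
Share of bases that lie in listed peaks (y axis, %) within 20 kb upstream (blue) and 20 kb downstream (orange) of the 5 hairpins with a peak in the window. Upstream exceeds downstream at each (56.6% against 41.2% at MIR142), with none downstream at MIR21 and MIR146A.

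As a group the 18 peaks were longer and stronger than the list as a whole. The loci were chosen with earlier results of these data known, so this comparison is a description and no independent evidence of an excess. MIR223 had 7 of the 18 peaks, MIR23A 5 and MIR142 3, and peaks of 1 locus are not independent. The median total of the 18 was 23749 against 6479, their median length 1600 bp against 893 bp, and their median maximum 75.5 against 22. Of the 18, 13 exceeded the list median by total, 14 by length, 13 by maximum and 13 by mean signal per base, and 8 stood among the 2008 strongest by total. Of these 8, 4 lay at MIR23A, and MIR142 and MIR223 had 2 each. The 18 peaks made up 0.0896% of the list and 0.443% of its total signal. Both MIR21 peaks also exceeded the list medians of total, maximum and mean signal, the MIR146A peak exceeded only that of mean signal, and 5 loci had no member.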

How the data were processed

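CUT&Tag with a PML-RARA antibody was done in 2 replicates of NB4 cells, 1 group. Trimmomatic, Bowtie2, SAMtools, bedtools and SEACR are named with hg19 in the submitters' processing notes; not given in the sources used here are versions, thresholds, any control track and the merging step. Each row of the deposited list holds a peak's position and a pair of SEACR signal columns of the authors, total and maximum coverage; the column headed width is read as total signal because it exceeds the length in every row and never the length times the maximum. No scaling to depth is stated, and depth is unknown. Starts may count from 0.

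Distances ran from the hairpin position to the nearest peak edge (pandas 2.3.3). Positions 1 kb apart and 426 TSSs from hg19 gene-model samples of GenomicFeatures 1.54.1 and pyranges 0.1.4 served as background; these samples are software examples, 144 of the genes lie on chromosome 1 and 21 of the 22 microRNA genes do. Chromosome lengths came from GenomeInfoDb 1.38.1. Names, strands and sequences came from RefSeq on GRCh38.p14, with no coordinates carried over. Distance and window counts were tested on simulated data. Every member is named, each with its covering or nearest and its strongest peak; members and lists were chosen with earlier results of these data known. Alternatives changed the window, the distance measure, the joining of peaks, the signal threshold and the margin for a covered hairpin.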

Additional observations from a re-analysis of the deposited data

How the results depend on the processing

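A window of 10 kb left 4 of the 10 loci with a peak, beside 48.8% of the sampled TSSs and 8.64% of the 1 kb positions. At 50 kb it was 7 loci, beside 63.6% of the TSSs and 23.4% of the positions. With only the peaks at or above the median total, 4 loci had a peak, and no share of TSSs was computed for that threshold. The same threshold lowered the number of hairpins inside a peak from 3 to 2, as it removes the peak over MIR223. That number was also 2 when positions 1 kb to either side had to be covered too, and no background share was computed for that margin. The number of peaks near the hairpins, 18, became 10 with a window of 10 kb and 34 with 50 kb, by construction. The MIR142 share of the signal, 48.0%, ranged from 39.5% (length in place of total signal) to 52.6% (window of 10 kb). Order by strongest peak (MIR142, MIR23A, MIR223, MIR21, MIR146A) was the same by maximum signal; with a window of 50 kb 3 of the 5 loci kept their place, as MIR342 came before MIR21. The median distance to the nearest peak, 23623 bp, became 40563 bp with only the peaks at or above the median total. At that threshold MIR181A1 lay 1348487 bp and MIR146A 186453 bp from a peak, both farther than MIR155 (160714 bp, unchanged). No paired analysis was possible because the single group is present as 1 merged list with no value per replicate, so no replicate could be left out either.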

Other observations

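Promoter windows of the host transcripts were searched for letters bound by factors of interest, on both strands: AGGTCA, the core element of retinoic acid receptors, a pair of AGGTCA in the same direction 0 to 8 bases apart (each pair also counts as AGGTCA), and GGAAGT, a core of ETS factors such as PU.1, which can overlap AGGTCA only by its ends. RefSeq gave 10 windows for all 8 host transcripts listed (MIR142HG, VMP1, MIR155HG, MIR3142HG, EVL, PANK1, MIR181A1HG and MIRLET7BHG), each from 250 bases before to 50 after the start; MIR23AHG and MIR223HG were not on that list and were not searched. AGGTCA occurred in 0 of the 10 windows, against 13.8% of all 35116 windows, and the pair in 0, against 0.0997%. GGAAGT occurred in 1, that of VMP1, against 22.8%. The windows are on GRCh38.p14 and were not placed on the peak list, and a missing match says only that these letters are not in this window.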
